A study of Mus musculus with 12 samples.

Results

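The replication-dependent histone genes of mouse embryonic stem cells (mESCs) were examined in RNA-seq libraries of total RNA. Genes were taken as members if their symbol in the deposited tables began with Hist1h, Hist2h, Hist3h or Hist4h, if they were not named as pseudogenes, and if their mean expected count over the 12 libraries was at least 20. Of 54146 genes in the files, 70 names matched, 1 of them named as a pseudogene and 2 below the limit, which left 67 members. They comprised 6 linker histone H1 genes, 18 H2A, 18 H2B, 12 H3 and 13 H4 genes. Those of the Hist1 cluster (54 genes) lie on chromosome 13, those of Hist2 (10 genes) on chromosome 3, those of Hist3 (2 genes) on chromosome 11 and the only Hist4 gene on chromosome 6. The members just inside the limit were Hist1h4m (mean expected count 25.3), Hist2h2be (68.3) and Hist1h2ao (98.1). Just outside it were Hist1h2al (15.5) and Hist1h2aj (7.92), both of which the annotation types as pseudogenes.

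All libraries came from C57BL/6 mESCs of the genotype Prdm10F/F; Rosa26-CreERT2, in which both alleles of Prdm10 carry loxP sites and every cell expresses, from the ubiquitously active Rosa26 locus, a Cre that works only once tamoxifen has bound its receptor part. Cells had been kept for 24 h in 50 nM 4-hydroxytamoxifen (OHT), which activates the recombinase, or in ethanol (EtOH), the vehicle, and were harvested at Day 2 or Day 4 after induction, giving 4 groups of 3 libraries. The EtOH cells thus carried the same floxed alleles and the same inactive recombinase, but had seen no OHT, so that an effect of the compound or of Cre activity cannot be told apart from the deletion. Cells grew on gelatin in serum and LIF. The lines of the study had been derived from blastocysts on fibroblast feeders, and how many lines the 3 libraries of a group stand for is not given in the sources used here. The study's methods describe its experiments in general as independent biological repeats, without saying so of these libraries or whether they were separate cultures, and p-values measure the spread between these libraries only.

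Histone proteins package DNA into nucleosomes, each made of a tetramer of H3 and H4 and dimers of H2A and H2B, with H1 bound to the linker. The replication-dependent genes supply them while DNA is copied in S phase. Their mRNAs have no introns and no poly(A) tail. They end instead just past a short stem-loop in the RNA, which the stem-loop binding protein SLBP holds while a cleavage complex containing the U7 small nuclear RNA cuts the transcript. The same structure governs translation of the mRNA and its destruction when replication stops. mESCs spend much of their short cycle in S phase and are rich in these transcripts. Because the libraries were made from total RNA depleted of ribosomal RNA, with no selection for poly(A), such mRNAs were counted in them.

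The stem-loop is the sequence that sets these mRNAs apart, and it was looked for in the annotated transcripts past the end of the coding sequence. The search was for 16 bases with complementary arms of 6 bases around a loop of 4, the first arm being GG, 3 pyrimidines and T, and the loop beginning with T. It was found in 46 of the 67 members (68.7%). For 21834 other protein-coding genes the whole transcript was searched, coding sequence included, and 22 of them (0.101%) held it. In 15 of the 21 members without it, the annotation ends within 20 bases of the coding sequence, so that those letters are simply not in the annotated transcript. The stem-loop began 21 to 58 bases past the coding sequence (median 31). There were 8 versions of it. The following sequences show 1 gene for each version, plus members whose counts are given further on, with the stem-loop in capitals and 5 bases on either side, 5′ to 3′ on the strand of the gene, from GRCm38.
Hist2h2aa2, chr3:96239779-96239804 (−): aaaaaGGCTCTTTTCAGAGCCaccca
Hist1h3b, chr13:23752815-23752840 (+): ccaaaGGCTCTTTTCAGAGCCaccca
Hist1h2bk, chr13:22036295-22036320 (+): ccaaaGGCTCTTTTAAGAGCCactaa
Hist1h3c, chr13:23745042-23745067 (−): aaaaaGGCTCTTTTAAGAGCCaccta
Hist1h1t, chr13:23696520-23696545 (+): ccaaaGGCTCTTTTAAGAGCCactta
Hist1h4n, chr13:21831793-21831818 (−): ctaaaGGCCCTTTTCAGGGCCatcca
Hist1h4b, chr13:23757361-23757386 (+): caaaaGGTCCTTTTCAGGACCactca
Hist1h4i, chr13:22040961-22040986 (−): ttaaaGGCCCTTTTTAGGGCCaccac
Hist2h4, chr3:96262934-96262959 (−): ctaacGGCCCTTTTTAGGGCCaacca
Hist2h2ac, chr3:96220413-96220438 (−): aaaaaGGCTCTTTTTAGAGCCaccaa
Hist1h3g, chr13:23535884-23535909 (+): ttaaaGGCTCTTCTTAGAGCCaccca
Hist1h4a, chr13:23760795-23760820 (−): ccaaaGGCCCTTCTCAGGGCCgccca

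The version shown for Hist2h2aa2 was the most frequent, in 26 members of the H1 (3), H2A (10), H2B (8) and H3 (5) classes. The one with loop TTTA, shown for Hist1h2bk, was found in 6 members of the H1, H2B and H3 classes. All 12 H4 genes with a stem-loop had the first arm GGCCCT or GGTCCT, and no member of another class had either. Members with the same stem-loop moved in opposite directions, as the counts of Hist1h1t and Hist1h3c show further on.

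Libraries held between 35017667 and 41409992 expected counts, and the members took 1.57% to 1.86% of them. RSEM, which made the counts, divides reads that fit several genes among them, and histone genes are alike enough for this to matter. Its posterior SD, the uncertainty of that division within a library, had a median of 0.49% of the count over the members and was at most 1% for 47 and at most 5% for 62 of them. It was 59.8% of the count for Hist1h4m, 45.7% for Hist1h2ao and 22.7% for Hist1h2br, whose single values are uncertain. Hist2h3c1 (18.2%) and Hist1h2bq (17.3%) came next. The annotation gives 62 members a single exon, and 59 had a mean expected count above 1000.

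The level of a gene is given in TPM (abundance scaled to a fixed total per library and corrected for length). Members had a median mean TPM of 422, from 0.62 to 2331, with class medians of 319 for H1, 294 for H2A, 423 for H2B, 559 for H3 and 516.5 for H4. The highest level was that of Hist1h4n, an H4 gene at chr13:21831767-21832196, with 2450 ± 88.7 TPM in EtOH and 2319 ± 186 in OHT at Day 2, and 2097 ± 79.1 in EtOH and 2457 ± 74.7 in OHT at Day 4 (means ± SD, n = 3 per group here and throughout). Next in H4 was Hist1h4h (mean over the 12 libraries 1417 TPM). The highest H2B genes were Hist2h2bb (1356 TPM) and Hist1h2bk (1298 TPM), and the highest H2A genes were Hist2h2aa2 (1345 TPM) and Hist1h2ap (1261 TPM). In H1 these were Hist1h1a (1140 TPM) and Hist1h1b (628 TPM), and in H3 Hist1h3h (771 TPM) and Hist1h3b (770 TPM). The order of these 2 H3 genes depended on the group. At Day 4 Hist1h3h had 671.3 ± 28.3 TPM in EtOH and 960.7 ± 18.3 in OHT, and Hist1h3b 722.1 ± 17.4 and 874.6 ± 14.7. The lowest were Hist2h2be (0.62 TPM), Hist2h3c1 (1.60 TPM), Hist1h4m (2.25 TPM) and Hist1h2ao (6.57 TPM). Members known for expression in the male germ line were also low. Hist1h2aa, which encodes the testis H2A, had 23.6 TPM, Hist1h1t, which encodes the testis linker histone H1t, 20.9 TPM, and Hist1h2ba, which encodes the testis H2B, 17.0 TPM.

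Labels were checked by the targeted gene before anything else. Prdm10, which encodes a zinc finger transcription factor, had 767.2, 820.6 and 815.2 normalised counts in the EtOH libraries of Day 2 and 2080.2, 2224.5 and 2213.2 in those labelled OHT. At Day 4 the values were 820.6, 875.4 and 911.5 in EtOH and 1982.1, 2089.6 and 1965.0 in OHT. The count was thus higher in every library labelled OHT, with log2 fold changes of 1.44 and 1.21, and it goes against a plain loss of the transcript. A count over the whole gene does not show whether the floxed exon is present, so that it neither bears out the labels nor contradicts the deletion. OHT and EtOH name libraries by their labels throughout. All 6 markers of mESCs examined were abundant, and they moved with OHT: 1 was called higher and 2 lower at Day 2 and 4 higher at Day 4, where they summed to 70879 to 73872 normalised counts in EtOH and 79621 to 80165 in OHT. The 6 markers of fibroblasts had low counts, with none at 0 in a whole group. They summed to 197.7 to 226.3 in EtOH and 204.6 to 238.5 in OHT at Day 2, and to 174.0 to 205.5 in EtOH and 133.8 to 156.1 in OHT at Day 4, without overlap on the later day. Of the 6, 1 was lower and 1 was higher in OHT at Day 4 without overlap. Thy1 had 88.8, 88.9 and 70.8 in EtOH and 40.5, 38.5 and 35.3 in OHT. Pdgfrb went the other way, with 37.2, 39.5 and 31.4 in EtOH and 63.2, 59.3 and 42.8 in OHT. The 8 markers of germ layers and trophectoderm summed to 168.5 to 202.6 at Day 2, and to 245.8 to 274.2 in EtOH and 265.5 to 316.1 in OHT at Day 4. Of these 14 markers 1 at Day 2 and 0 at Day 4 were abundant enough to be tested, and the part of such cells in the histone counts was not tested.

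At Day 4, the histone genes were on balance more abundant in the OHT libraries, most of all those of the H3 and H2A classes. Summed over all members, the normalised count was 611056, 600332 and 614766 in EtOH and 699776, 716410 and 684372 in OHT, without overlap, a difference of 15.0% (log2 ratio of the means 0.20, SE 0.02). The sum of the H3 genes was 27.6% higher (108799, 107208 and 114864 in EtOH against 139413, 141929 and 141012 in OHT). That of the H2A genes was 25.1% higher (99293, 100062 and 105692 against 127944, 129042 and 124750). For H1 (log2 ratio 0.15, SE 0.02) and H4 (0.15, SE 0.03) the groups did not overlap either. The H2B sum overlapped, with 153046, 149056 and 147279 in EtOH against 158077, 163031 and 152772 in OHT (log2 ratio 0.08, SE 0.03). Normalised counts are relative to the rest of the RNA in a library, and in bulk RNA fewer or more cells in S phase cannot be told apart from less or more histone mRNA per cell. By flow cytometry, the study reported that the distribution of mESCs over the cell cycle was not significantly changed after PRDM10 loss. The share of cells in S phase was not measured in the libraries used here.

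**Figure D1:**
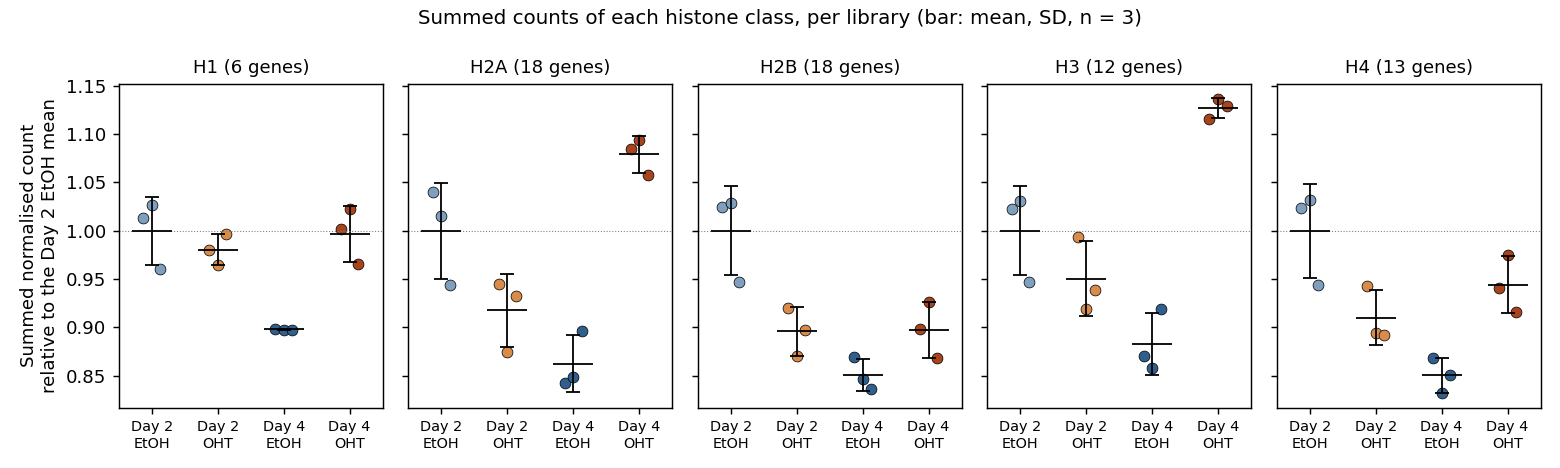
Summed normalised counts of the H1, H2A, H2B, H3 and H4 genes in each library of the 4 groups, divided by the mean of the Day 2 EtOH libraries of that class (dotted line), with the mean and SD (n = 3); the axis does not start at 0. At Day 4 the OHT libraries lie above the EtOH libraries for H1, H2A, H3 and H4, whereas the H2B sums overlap (152772 to 163031 in OHT, 147279 to 153046 in EtOH).

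Gene by gene, DESeq2 (called at a Benjamini-Hochberg adjusted p below 0.05 over all genes and a mean normalised count above 100) gave 35 members higher and 8 lower in OHT at Day 4, of the 63 members that were tested. That is 55.6% of those tested higher, where 23.5% of all 11552 tested genes were called higher, and 12.7% lower, where 21.7% of all genes were called lower. The median log2 fold change of the members was 0.14, beside 0.01 over all tested genes, and 53 of the 67 lay above 0. All 11 H3 genes tested rose (median of the class 0.35), as did 11 of 17 H2A genes (0.29) and 7 of 12 H4 genes (0.17), whereas 4 of 17 H2B genes (0.06) and 2 of 6 H1 genes (0.03) did. Falling genes were 3 of H2B, 2 each of H1 and H4 and 1 of H2A. These class medians kept their sign under each alternative run for them (edgeR, other scalings and offsets, posterior mean counts, removal of the length trend, the block and 1 fit of all libraries) and without each library in turn. Normalised counts did not overlap between the groups for 38 members that were higher in OHT and 8 that were lower, where 33.5% and 29.5% of all genes had no overlap.

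The 2 largest called rises were both in H3. Hist1h3h (chr13:21717659-21718069), the H3 gene of highest TPM, had 7152.0, 7126.8 and 7959.4 normalised counts in EtOH and 10804.9, 11224.8 and 10512.4 in OHT at Day 4. Every OHT library stood well above every EtOH library (log2 fold change 0.55, SE 0.04, adjusted p = 3.06e-35). Hist1h3c rose from 9186.4, 9844.9 and 10067.6 to 13604.3, 14204.0 and 13709.6 (0.51, SE 0.04). Hist1h3b, the other most abundant H3 gene, rose from 14064.4, 14257.6 and 15215.7 to 17877.5, 17923.5 and 18021.8 (0.30, SE 0.03). The smallest of the 11 H3 changes was that of Hist1h3d (0.14). Hist2h3c1 was too low to be called (mean expected count 119.8 over the 12 libraries, log2 fold change -0.88), and with a posterior SD of 18.2% of its count it cannot be separated well from its near copies.

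In H2A, Hist2h2aa1 (chr3:96245497-96246082) had 6418.1, 5913.5 and 6868.9 normalised counts in EtOH and 8370.7, 9195.5 and 9403.8 in OHT at Day 4 (0.49, SE 0.05, adjusted p = 1.74e-20). Its more abundant neighbour Hist2h2aa2 had 19636.1, 19531.8 and 19676.0 against 27248.1, 26315.4 and 24943.6 (0.41, SE 0.03). In Hist1h2ap the values were 15805.7, 16314.7 and 17451.4 against 21512.0, 21286.2 and 21541.8 (0.37, SE 0.04). None of these 3 genes overlapped between the groups. Hist1h2ai had 5319.8, 5409.6 and 7152.1 in EtOH and 8154.5, 9104.6 and 7391.4 in OHT (0.46, SE 0.17, adjusted p = 0.0218), where the highest EtOH library came close to the lowest OHT library. Its call was lost without EtOH 1, EtOH 2, OHT 1 or OHT 2 of Day 4.

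The H4 and H2B genes of highest TPM moved less. Hist1h4n had 25402.9, 24734.8 and 24421.4 normalised counts in EtOH and 29601.3, 31212.2 and 28600.2 in OHT at Day 4 (log2 fold change 0.26, SE 0.03). Hist1h4h rose by 0.17 and Hist1h2bk by 0.14 on the same scale. Hist2h2bb had 13114.8, 12567.0 and 12960.8 in EtOH against 14875.7, 15063.9 and 14009.0 in OHT (0.18, SE 0.04). In all 4 genes the OHT libraries lay above the EtOH libraries.

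The linker histones split. Hist1h1a, the H1 gene of highest TPM, had 29803.1, 29716.6 and 29664.7 in EtOH and 31197.5, 31211.2 and 29217.7 in OHT at Day 4, which overlapped, and was not called (0.04). Hist1h1d went from 25375.0, 25700.1 and 25187.2 to 33203.3, 34466.2 and 32642.8 (0.39) and Hist1h1c from 22315.7, 22315.1 and 22444.7 to 27287.6, 28286.4 and 26727.3 (0.29). Hist1h1b moved the other way, with 17232.2, 16719.8 and 16944.6 in EtOH and 15282.4, 15887.3 and 14791.1 in OHT (-0.15, SE 0.03, adjusted p = 3.31e-05). Hist1h1e was not called (0.03).

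The lowest log2 fold changes at Day 4 among the called members were those of the 3 genes known from the germ line, each at about the same ratio. Hist1h1t had 715.3, 757.8 and 696.0 normalised counts in EtOH and 371.2, 343.0 and 350.6 in OHT (log2 fold change -1.03, SE 0.09, adjusted p = 4.6e-28). Hist1h2aa had 397.4, 293.5 and 341.9 against 164.8, 183.9 and 164.6 (-1.01, SE 0.14, adjusted p = 1.02e-11). Hist1h2ba had 218.8, 261.8 and 223.6 against 127.3, 124.5 and 104.2 (-0.99, SE 0.16, adjusted p = 6.95e-09). The groups were far apart in all 3 genes. At Day 2 none of the 3 was called, with log2 fold changes of 0.15, 0.12 and 0.39 in the same order, but when each library's trend of counts on gene length was removed Hist1h1t (0.23) and Hist1h2ba (0.52) were called higher there, as Hist1h2ba was with edgeR (0.40).

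**Figure D2:**
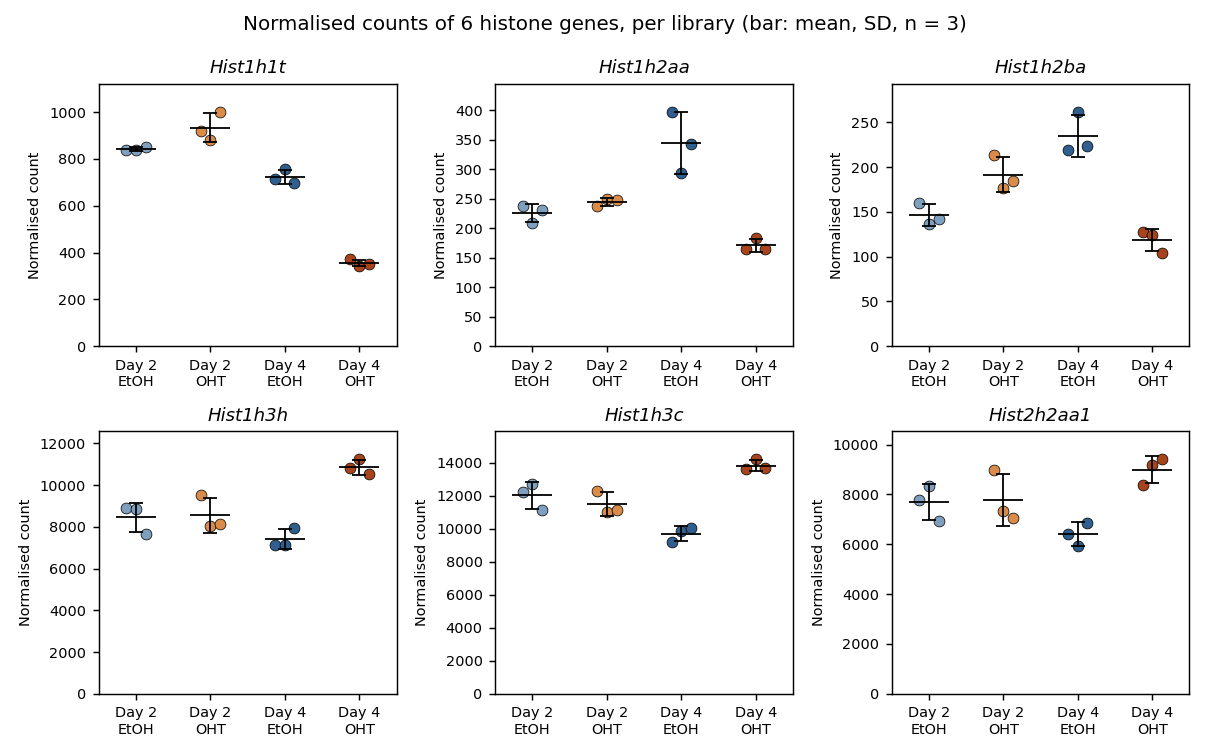
Normalised counts of 6 histone genes in each library of the 4 groups, with the mean and SD (n = 3) and each axis from 0. Hist1h1t, Hist1h2aa and Hist1h2ba (upper panels) are lowest in the OHT libraries of Day 4 (343.0 to 371.2 for Hist1h1t), whereas Hist1h3h, Hist1h3c and Hist2h2aa1 (lower panels) are higher in OHT than in EtOH at Day 4.

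The other 5 members that fell at Day 4 changed less. Hist1h2bp (chr13:21787461-21789213) had 1429.6, 1506.8 and 1415.3 in EtOH and 1020.7, 1042.8 and 1066.7 in OHT (-0.48, SE 0.06, adjusted p = 1.45e-13). Hist1h4i (chr13:22040636-22041362) had 2274.9, 2231.0 and 2150.7 against 1635.6, 1796.0 and 1730.7 (-0.37, SE 0.05, adjusted p = 8.05e-11). The groups stood apart in both. Hist3h2ba, an H2B gene of the small Hist3 cluster, changed by -0.28 (SE 0.07, adjusted p = 1.64e-04) and Hist1h4c, whose groups overlapped, by -0.10. Hist1h1b, given above, was the last of the 5.

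At Day 2 the balance was towards lower counts in OHT, and it rested on more assumptions. DESeq2 called 1 member higher and 28 lower of 65 tested, against 9.17% of all 11642 tested genes higher and 10.7% lower. The median log2 fold change was -0.11, beside -0.03 over all genes. The lower calls comprised 9 H2B, 8 H2A, 6 H4, 4 H3 and 1 H1 gene, with class medians of -0.14, -0.14, -0.12, -0.07 and -0.02. Groups did not overlap for 28 members lower and 7 higher in OHT, where 26.9% and 18.7% of all genes had no overlap. The summed count of all members overlapped between the groups, with 719561, 721591 and 665972 in EtOH and 669588, 633521 and 651115 in OHT (log2 ratio -0.11, SE 0.04). Among the class sums those of H2B (-0.16) and H4 (-0.14) did not overlap, and those of H1, H2A and H3 did. Leaving out EtOH 1, EtOH 2 or OHT 2 left 16, 17 or 18 members lower. Lower calls over all genes also fell, from 1240 of 11642 tested to 587 of 11638, 713 of 11630 and 840 of 11616. Histone genes are short, and when each library's trend of counts on gene length was removed, 8 members were called higher and 11 lower. Their median was then -0.03, and the medians of H1 and H3 lay above 0 (0.02 and 0.03). Of all 11649 genes tested in that setting 930 were higher and 991 lower (median -0.01). The part of length in the Day 2 values was not tested further.

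Hist1h4i fell most at Day 2, from 3119.7, 3194.0 and 2956.8 normalised counts in EtOH to 2053.2, 2034.0 and 2040.1 in OHT (-0.60, SE 0.05, adjusted p = 8.23e-28). Hist1h2bp fell from 2128.3, 2220.2 and 2138.3 to 1631.2, 1585.3 and 1638.2 (-0.42, SE 0.06, adjusted p = 9.01e-12). Both were clear of overlap and both were lower at Day 4 too. The remaining members called lower on both days were Hist1h1b (-0.11 at Day 2) and Hist1h4c (-0.28). Hist2h2ab (267.7, 273.5 and 254.0 against 205.5, 181.2 and 198.2) changed by -0.44 (SE 0.13, adjusted p = 0.00946), a call that was lost without EtOH 1, EtOH 2 or OHT 2 and with the length trend removed. Hist1h2ai (5691.7, 5492.2 and 5781.1 against 4766.9, 3579.9 and 4294.7) changed by -0.42 (SE 0.12, adjusted p = 0.00519), a call that was lost without EtOH 1 or EtOH 3 and with the trend removed. With that trend removed, the Day 2 calls of Hist1h4n (-0.16), Hist1h4h (-0.12), Hist1h3b (-0.14), Hist1h1b and Hist1h2bk (-0.16) were lost as well, and those of Hist1h1b and Hist1h4h were also lost without EtOH 1, EtOH 2 or OHT 2 (for Hist1h4h also without OHT 3).

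Hist2h4, an H4 gene of the Hist2 cluster (chr3:96261682-96263311), was the only member called higher on both days. It had 2162.4, 2016.9 and 2041.7 normalised counts in EtOH and 2337.6, 2430.1 and 2459.4 in OHT at Day 2 (0.22, SE 0.05, adjusted p = 0.00118). At Day 4 it had 2158.3, 1991.9 and 2040.4 against 2325.6, 2237.8 and 2450.5 (0.18, SE 0.05), a call that was lost without EtOH 2 or OHT 3 of that day. Its stem-loop has the same letters as that of Hist1h4i, which was lower on both days. The other Hist2 genes were called once at Day 2 (Hist2h2ab, lower) and 6 times at Day 4, all higher. Of 9 Hist2 genes tested at Day 2, 11.1% were higher and 11.1% lower, beside 9.17% and 10.7% of all genes. At Day 4 only 8 were tested, and 87.5% were higher. Of 52 Hist1 genes tested at Day 4, 28 were higher (53.8%) and 7 lower (13.5%), beside 23.5% and 21.7% of all genes. The difference between the clusters was not tested.

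Hist1h2bq and Hist1h2br show what shared reads do. At Day 2 Hist1h2bq had 12722.8, 10829.2 and 10291.2 in EtOH and 7156.3, 8302.0 and 8488.1 in OHT (-0.50, SE 0.12, adjusted p = 4.00e-04), while Hist1h2br had 4917.9, 7695.0 and 5290.5 against 9163.7, 6662.3 and 6049.4 and was not called (0.29). Where one was high in a library the other tended to be low. With RSEM's posterior mean counts in place of the expected counts, the call of Hist1h2bq was lost (-0.25, adjusted p = 0.174). Summed, the pair overlapped between the groups at Day 2 (log2 ratio -0.18) and was higher in OHT at Day 4 without overlap (14490 ± 743.5 against 12760 ± 103.4). Hist1h2ao (48.5, 113.6 and 0.0 in EtOH, 64.2, 133.4 and 120.9 in OHT at Day 4) and Hist1h4m (17.5, 0.0 and 37.4 against 24.7, 33.6 and 8.4) were too scattered to compare.

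**Figure D3:**
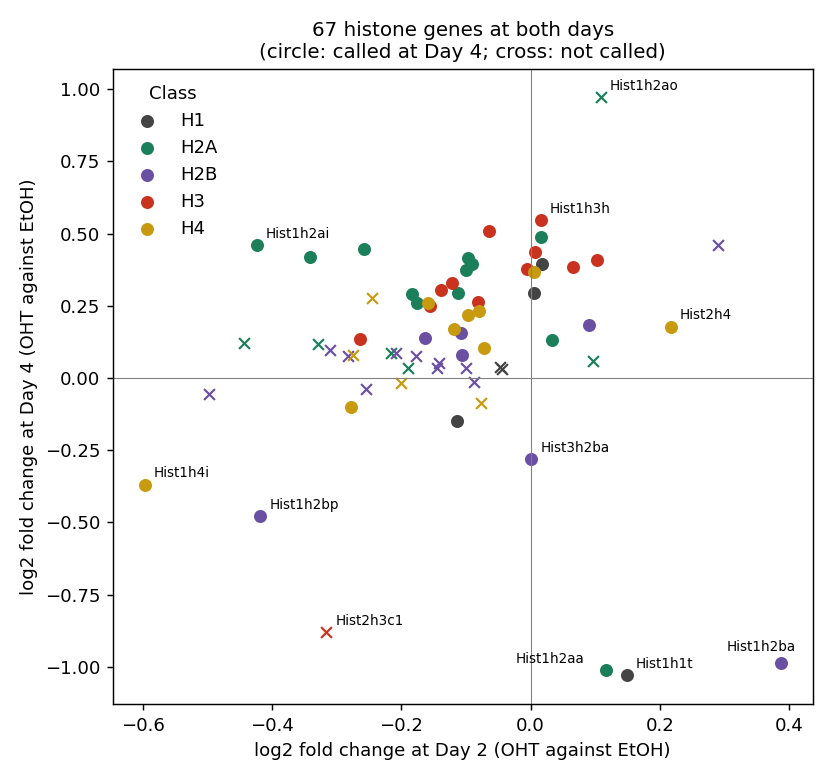
Log2 fold change of OHT against EtOH for the 67 histone genes at Day 2 (x axis) and Day 4 (y axis), coloured by class, with circles for genes called at Day 4 and crosses for the rest. Most H3 and H2A genes lie between 0 and 0.55 on the y axis, and Hist1h1t, Hist1h2aa and Hist1h2ba lie near -1 on it but above 0 on the x axis.

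The effect of OHT differed between the days for most members, as tested by the treatment-by-day interaction in a fit of the same 12 libraries that gave the comparisons above. DESeq2 called 45 members with a more positive effect at Day 4 and 4 with a more negative one, of 64 tested, where 18.7% of all genes were called in the positive and 13.6% in the negative direction. The median difference was 0.31 on the log2 scale, beside 0.03 over all genes. With the length trend removed it was 0.15, with 30 and 7 members called. Of all 11617 genes tested in that setting 1927 and 1744 were called (median 0.015). By class, 13 H2A, 11 H3, 10 H4, 9 H2B and 2 H1 genes had the more positive effect. Hist1h2ai had the largest such difference (0.89, SE 0.21). The 4 negative ones were Hist1h2ba (-1.37, SE 0.20), Hist1h1t (-1.18, SE 0.10), Hist1h2aa (-1.13, SE 0.18) and Hist3h2ba (-0.28). In 12 members the separate tests gave a lower call at Day 2 and a higher call at Day 4, among them Hist1h3b, Hist1h4n, Hist1h4h and Hist1h2bk. The Day 2 calls of these named genes were lost with the length trend removed. The share of all genes with this pattern was not counted.

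The vehicle libraries themselves had lower histone counts at Day 4 than at Day 2. In EtOH alone, 44 members were lower and 2 higher at Day 4 of 64 tested, where 20.5% of all genes were lower and 20.6% higher. The median log2 fold change was -0.21, beside 0.00 over all genes, and the sum of all members was 13.3% lower. With the length trend removed there were 36 lower and 6 higher members, beside 2189 lower and 2734 higher of all 11576 genes tested. In OHT the change from Day 2 to Day 4 was to higher counts in 32 members and to lower counts in 11 of 64, where 30.8% of all genes were higher and 23.0% lower. Its median was 0.09, beside 0.04 over all genes. With the length trend removed 21 members were higher and 17 lower (median 0.025). Of all 11641 genes tested in that setting 3330 were higher and 2752 lower (median 0.02). The 11 H3 genes tested were all higher at Day 4 in OHT (median 0.25), while 9 of 12 were lower at Day 4 in EtOH. The sum of all members at Day 4 in OHT (700186 ± 16020) was thus close to that of Day 2 in EtOH (702375 ± 31540). These comparisons share libraries with those of the single days and are not independent of them.

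Single genes moved further with time. Hist3h2ba fell from Day 2 to Day 4 in EtOH (-0.64, SE 0.06, adjusted p = 4.15e-23) and also in OHT (-0.91). Hist1h2ba rose in EtOH (0.68, SE 0.15, adjusted p = 7.73e-05) and fell in OHT (-0.69). Hist1h2aa did the same, with 0.61 (SE 0.14) in EtOH and -0.51 in OHT. Hist1h1t fell in both, by 0.22 in EtOH and by 1.39 in OHT on the log2 scale. The Day 4 contrast of Hist1h2aa and Hist1h2ba therefore holds both a rise without OHT and a fall with it.

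Within a library, the proportions of the classes to each other also differed between the groups. The ratio of the summed H3 to the summed H2B count was 0.708 to 0.711 in the EtOH and 0.743 to 0.766 in the OHT libraries of Day 2, and 0.711 to 0.780 in the EtOH and 0.871 to 0.923 in the OHT libraries of Day 4. That of H2A to H2B, the partners of the nucleosome dimer, was 0.661 to 0.680 and 0.674 to 0.697 at Day 2, and 0.649 to 0.718 and 0.792 to 0.817 at Day 4. For both ratios the OHT libraries of Day 4 lay above the other 9. The ratio of H2A to H3 stayed closer, at 0.922 ± 0.01 in EtOH and 0.904 ± 0.017 in OHT at Day 4. Removing the length trend left the Day 4 ratios of OHT at 0.896 for H3 to H2B and 0.805 for H2A to H2B, beside 0.731 and 0.679 in EtOH. Such ratios show unequal change and do not say which class stayed the same. No p-value is given for these sums and ratios.

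**Figure D4:**
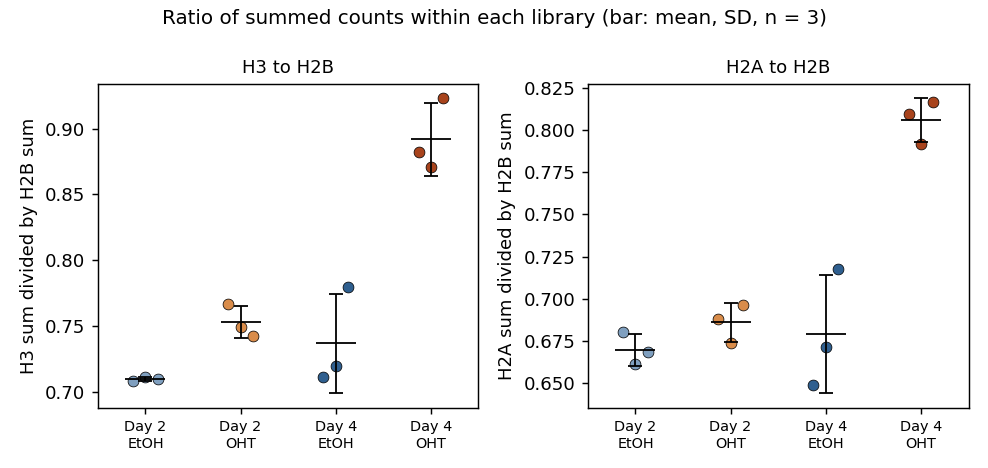
Ratios of summed normalised counts within each library (H3 to H2B and H2A to H2B) for the 4 groups, with the mean and SD (n = 3) and axes that do not start at 0. The OHT libraries of Day 4 lie above all others in both ratios (0.871 to 0.923 and 0.792 to 0.817).

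H2A and H2B genes often lie head to head and share the stretch between them, so that they can be compared pair by pair. There were 12 pairs of an H2A and an H2B member transcribed away from each other with 175 to 305 bases between their starts. At Day 4 the log2 fold change of the H2A gene was above that of its partner in 9 of the 12. The medians were 0.33 for the H2A and 0.08 for the H2B genes, with a median difference of 0.28. The 9 include Hist1h2ao with Hist1h2bq, whose posterior SDs were 45.7% and 17.3% of the count. They also include Hist2h2ac with Hist2h2be, whose mean expected count was 68.3. Hist1h2ae changed by 0.42 and its partner Hist1h2bg by 0.08 (not called). Hist1h2ah changed by 0.45 and Hist1h2bk by 0.14. Hist1h2an was not called (0.09) while Hist1h2bp fell (-0.48). In the other 3 pairs the H2A gene was below its partner. Among them were Hist1h2ap with Hist1h2br (posterior SD 22.7%) and the germ-line pair Hist1h2aa (-1.01) and Hist1h2ba (-0.99), which both fell. The partners had the same sign in 10 of the 12 pairs. By position, the 23 genes of Hist1 between 21715763 and 22043676 on chromosome 13 and the 31 between 23531050 and 23934851 had 11 and 17 genes higher and 3 and 4 lower at Day 4, with medians of 0.26 and 0.14. Of all tested genes, 23.5% were higher and 21.7% lower.

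Promoters were read from RefSeq windows (GRCm38.p6) of 250 bases before to 50 bases after the start, 63 windows for 62 members, and 3 motifs were counted on both strands, which may overlap one another. TATAAA was in 55.6% of them, against 13.6% of all 32851 windows. CCAAT was in 85.7%, against 37.4%, and in every window of H1, H2A, H2B and H3 but in 3 of 12 of H4. ATTTGCAT, the octamer bound by POU factors, was in 22.2%, against 1.74%, in 7 of 18 H2A and 7 of 17 H2B windows and in none of the other classes, where windows of head-to-head genes overlap and can hold the same copy. The windows of Hist1h2ba, which was lower at Day 4 and overlaps that of Hist1h2aa, and of Hist1h3h, which was higher, are shown with these motifs in capitals on either strand, 5′ to 3′ in the direction of transcription.
Hist1h2ba, chr13:23934107-23934406 (−): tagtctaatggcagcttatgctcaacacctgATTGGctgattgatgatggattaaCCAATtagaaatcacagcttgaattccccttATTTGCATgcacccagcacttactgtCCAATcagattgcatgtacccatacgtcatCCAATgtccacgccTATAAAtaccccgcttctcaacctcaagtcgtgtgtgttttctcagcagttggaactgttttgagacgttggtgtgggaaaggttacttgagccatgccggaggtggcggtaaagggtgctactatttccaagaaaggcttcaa
Hist1h3h, chr13:21717378-21717677 (+): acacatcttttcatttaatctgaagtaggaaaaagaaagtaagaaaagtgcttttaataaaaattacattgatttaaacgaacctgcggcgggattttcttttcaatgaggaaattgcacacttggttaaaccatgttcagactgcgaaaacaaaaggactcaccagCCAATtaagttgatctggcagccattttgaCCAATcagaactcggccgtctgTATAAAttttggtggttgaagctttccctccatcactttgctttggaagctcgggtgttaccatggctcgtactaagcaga

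Both windows hold TATAAA before the start and CCAAT in the forward or reverse direction, and that of Hist1h2ba holds the octamer. A match is a description of the letters and not a site of binding. The study's list of genes bound by PRDM10, made by ChIP-seq in mESCs, holds none of the 67 members.

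The stem-loop also gave a way to sort members by how far the annotation runs on beyond it. Of the 46 members with a stem-loop, 23 have at most 100 annotated bases beyond it and 23 have more. At Day 4 the first had 16 genes higher and 1 lower (median log2 fold change 0.26), the second 12 higher and 4 lower (0.11), and the 21 members without an annotated stem-loop 7 higher and 3 lower (0.10), where 23.5% of all genes were higher and 21.7% lower. The difference between these sets was not tested. At Day 2 the medians were -0.11, -0.09 and -0.14. Reads over the longer stretches could come from transcripts that run past the stem-loop, which these gene counts do not separate.

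Genes that make and process histone mRNA were followed in a list of 16. In this list 12.5% (2 genes) were higher and 43.8% (7 genes) lower in OHT at Day 4, where 23.5% and 21.7% of all genes were, and 6.25% (1 gene) higher and 18.8% (3 genes) lower at Day 2, where 9.17% and 10.7% of all genes were. Slbp, which encodes the stem-loop binding protein, had 7131.4, 7036.2 and 6753.7 normalised counts in EtOH and 4794.8, 4529.7 and 4147.7 in OHT at Day 2 (-0.63, SE 0.05, adjusted p = 9.69e-31). At Day 4 it had 8160.4, 7433.1 and 7293.8 against 4982.9, 4929.4 and 4683.3 (-0.65, SE 0.04, adjusted p = 1.59e-46). Cpsf2, which encodes the CPSF100 subunit of the cleavage complex, had 6067.2, 5751.3 and 5774.6 against 3220.5, 3081.5 and 3049.8 at Day 2 (-0.91, SE 0.05) and 6334.5, 6058.7 and 5705.5 against 3072.9, 3035.5 and 2908.9 at Day 4 (-1.01, SE 0.05). Both genes were far lower in every OHT library on both days. Slbp and Cpsf2 are the 2 genes of the list that the study's ChIP-seq lists as bound.

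Other genes of this list moved less. Cpsf3, which encodes the nuclease that makes the cut, was higher at Day 4 (0.14), as was Sympk (0.33), the scaffold of the same complex. Npat, the coactivator of histone gene transcription in S phase, was not called on either day (0.05 and 0.06), with 4059.6, 3919.6 and 3741.0 in EtOH and 4112.3, 4021.0 and 4071.4 in OHT at Day 4. Hinfp, an activator of H4 genes, was lower on both days (-0.18 and -0.17). Pou2f1, which encodes the octamer-binding factor OCT1, was higher at Day 2 (0.23, SE 0.06, adjusted p = 0.00236) and lower at Day 4, where it had 2355.4, 3302.1 and 3345.4 in EtOH and 2014.7, 1989.7 and 2098.0 in OHT (-0.56, SE 0.16, adjusted p = 0.00158). The Day 2 call of Pou2f1 was lost with the length trend removed (0.01), and the Day 4 call with effective lengths as offsets (adjusted p = 0.0765). The cap-binding genes Ncbp1 (-0.23) and Ncbp2 (-0.18) were lower at Day 4. The part of any of these genes in the histone counts was not tested.

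**Figure D5:**
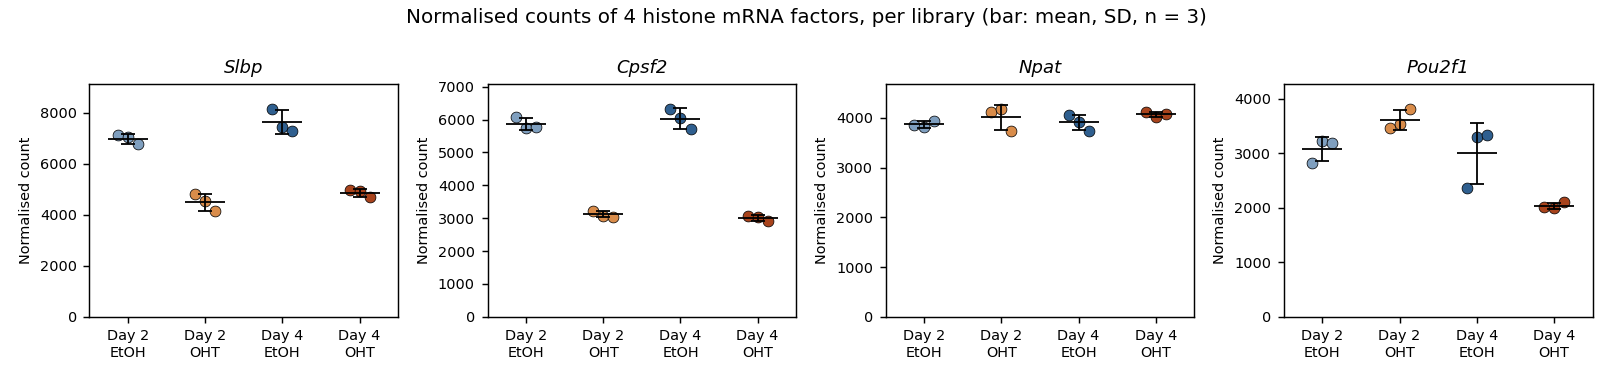
Normalised counts of Slbp, Cpsf2, Npat and Pou2f1 in each library of the 4 groups, with the mean and SD (n = 3) and each axis from 0. Slbp and Cpsf2 are lower in the OHT libraries on both days (2908.9 to 3072.9 for Cpsf2 at Day 4), Npat overlaps between the groups, and Pou2f1 is lower in OHT at Day 4.

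Histone mRNA decay was covered by 9 genes, with 2 higher (22.2%) and 3 lower (33.3%) at Day 4 and 2 higher (22.2%) and 1 lower (11.1%) at Day 2, too few to read against the same shares of all genes. At Day 4 Mif4gd, which encodes a partner of SLBP in translation, was higher (0.23), while the decapping enzyme gene Dcp2 (-0.22) and Lsm1 (-0.22), part of the ring that binds mRNA ends before decay, were lower. A list of histone variant genes that were not members held 11. Of these, 4 were higher (36.4%) and 2 lower (18.2%) at Day 4, beside 23.5% and 21.7% of all genes. At Day 2, 0 were higher and 4 lower (36.4%), beside 9.17% and 10.7%. H2afy2, a macroH2A gene (0.35), and H2afx, the gene of the H2A that is phosphorylated at DNA breaks (0.34), were higher at Day 4, and H2afz, encoding H2A.Z, was lower on both days (-0.20 and -0.39).

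Of 18 chaperones and importers of histones, 2 were higher (11.1%) and 8 lower (44.4%) at Day 4, beside 23.5% and 21.7% of all genes, and 2 higher and 2 lower (11.1% each) at Day 2, close to the 9.17% and 10.7% of all genes. Hira, which places H3.3 outside replication, was lower at Day 4 (-0.38), Atrx, a partner of DAXX in placing H3.3, was higher (0.34), and Asf1b, which hands H3 and H4 to the replication fork, was lower (-0.17), a call that was lost without EtOH 1 or OHT 1. Of 18 genes that rise at the start of S phase or copy DNA, 0 were higher and 13 lower (72.2%) at Day 4 (median -0.15), beside 23.5% and 21.7% of all genes, and 1 was higher (5.56%) and 2 lower (11.1%) at Day 2 (median -0.03), beside 9.17% and 10.7%. Mcm4 (-0.53) and Mcm5 (-0.31), subunits of the replicative helicase, and Ccne1 (-0.37), cyclin E1, were the genes of this list with the largest falls at Day 4. The part of the cell cycle in the histone counts was not tested.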

How the data were processed

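RNA-seq was measured in 12 mESC libraries (Day 2 and Day 4, EtOH and OHT, 3 each), grouped by sample title. Reads of each library had been aligned by the authors with STAR (version 2.6.0c) to GRCm38.p6, and RSEM gave the deposited expected counts per GENCODE gene. The deposited TPM values and the posterior SDs, a score of the uncertainty of each count, come from the same step. The authors' log2 fold changes and p-values (DESeq2, version 1.22.2) were also deposited, for all genes per day. They were not used, and the tables served only to give symbols (54079 of 54146 genes). Depth of 35017667 to 41409992 expected counts leaves little counting error for the 59 members with a mean expected count above 1000, and more for the others. Amplified reads without molecular identifiers are not independent molecules.

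Expected counts were rounded and all genes were fitted with DESeq2 (version 1.42.0, R 4.3.3; Wald test, median-of-ratios size factors). A call needed an adjusted p (Benjamini-Hochberg, all genes) under 0.05 with a normalised mean over 100. Normalised counts per library used size factors over all 12 libraries, fold changes those of each comparison, unshrunken. Class sums have no test, and the SE of their log2 ratio comes from the 3 libraries per group. The script was tested on simulated counts. Positions came from GENCODE vM21 (GRCm38), and the stem-loops from its transcripts, since no genome sequence was used.

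Alternatives were edgeR (version 4.0.16), TMM or total-count scaling, offsets from effective lengths, subtraction of a loess curve of counts on gene length (span 0.3) from every library, the replicate number as a block, posterior mean counts, a single fit of all 12 libraries, no minimum mean, only members with a posterior SD of at most 20%, and each library left out. Removal of the length trend from class sums and ratios was added after seeing the data.

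Members and gene lists were chosen with earlier results of these data known. Named by rule were the 2 members of highest TPM per class, the 4 largest called changes without overlap in each direction per day, the 4 largest interactions and changes in EtOH, the 3 of largest posterior SD, those at the limit, Prdm10, Slbp, Npat and up to 3 genes per list. Any other named gene (Hist1h1c, Hist1h1d, Hist1h1e, Hist1h3d, Hist1h4c, the head-to-head pairs, Hist2h3c1, the genes shown for their stem-loops, Hinfp, Cpsf3, Sympk, Ncbp1, Ncbp2 and Hist3h2bb-ps) was chosen after its values were seen. No 2 libraries of a group were duplicates (chi-square per gene at least 3.41 over 11616 genes).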

Additional observations from a re-analysis of the deposited data

Results flagged for a closer look

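The results below stood out because the effect of OHT differed between Day 2 and Day 4, by DESeq2's test of the interaction of treatment and day (adjusted p below 0.05). This held for 45 members with a more positive and 4 with a more negative effect at Day 4. The differences (Day 4 effect minus Day 2 effect, log2) among the named members were 0.89 for Hist1h2ai, 0.58 for Hist1h3c, 0.57 for Hist2h2ab, 0.53 for Hist1h3h, 0.51 for Hist2h2aa2, 0.48 for Hist1h2ap, 0.47 for Hist2h2aa1, 0.45 for Hist1h3b, 0.42 for Hist1h4n, 0.31 for Hist1h2bk, 0.29 for Hist1h4h and 0.23 for Hist1h4i, which was lower in OHT on both days but less so at Day 4. They were -1.37 for Hist1h2ba, -1.18 for Hist1h1t, -1.13 for Hist1h2aa and -0.28 for Hist3h2ba.

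Among the other genes followed, the difference was -0.23 for Prdm10 and -0.79 for Pou2f1. For the decay and variant lists it was 0.24 for Mif4gd, -0.18 for H2afz, 0.51 for H2afy2 and 0.46 for H2afx. For the chaperones Hira and Atrx it was -0.34 and 0.32, and for the S phase genes Mcm4, Ccne1 and Mcm5 it was -0.28, -0.36 and -0.31. Slbp, Cpsf2 and Npat were not called in this test.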

How the results depend on the processing

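With the length trend removed, the Day 2 comparison had 8 members higher and 11 lower (median -0.031), and the summed log2 ratios were -0.022 for all members, -0.019 for H2A, -0.055 for H2B, -0.033 for H4 and, with the sign turned, 0.022 for H3. The other medians were 0.11 at Day 4, 0.15 for the interaction (7 negative calls), -0.15 in EtOH (6 higher) and 0.025 in OHT (21 higher, 17 lower), and the Day 4 sums 0.17 for all members and 0.28 for H2A. The higher calls at Day 2 numbered 5 with edgeR, 4 with total counts and 4 with all libraries in 1 fit. Over all genes they numbered 1479 of 11644, 1390 of 11652 and 1316 of 11612 tested, in the same order. The Day 2 H1 sum turned to 0.01 with total counts. With each library left out in turn, Day 2 had 1 higher and 16 to 34 lower members (median -0.15 to -0.09), Day 4 32 to 38 and 7 to 8 (0.13 to 0.15), the interaction 41 to 48 and 4 to 5 (0.29 to 0.34), EtOH 2 and 36 to 44 (-0.26 to -0.18) and OHT 27 to 34 and 10 to 13 (0.09 to 0.12). Over all genes, Day 2 then had 617 to 1036 higher and 587 to 1101 lower, and Day 4 2097 to 2636 and 1937 to 2191. The interaction had 1699 to 2145 and 1289 to 1475, EtOH 1823 to 2045 and 1812 to 2135, and OHT 3075 to 3290 and 2263 to 2435. The summed ratios without a library were, at Day 2, -0.15 to -0.09 (all), -0.06 to -0.01 (H1), -0.16 to -0.09 (H2A), -0.20 to -0.14 (H2B), -0.11 to -0.05 (H3) and -0.18 to -0.11 (H4), and at Day 4 0.18 to 0.22, 0.13 to 0.17, 0.31 to 0.35, 0.05 to 0.10, 0.33 to 0.38 and 0.13 to 0.17.

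The replicate numbers were not taken to pair libraries, as same-numbered ones did not deviate together (r from -0.43 to 0.29 over 11616 genes, and 2 of 12 correlated best with their own number). With 3 libraries per group this check cannot show whether the libraries had been paired, and the labels do not say. With the number as a block, calls of members were 1 higher and 23 lower at Day 2 and 33 and 7 at Day 4. They were 45 and 4 for the interaction, 2 and 39 in EtOH and 29 and 10 in OHT. Over all genes, 648 were higher and 636 lower of 11644 tested at Day 2, and 2013 and 1856 of 11555 at Day 4. The interaction had 1918 and 1411 of 11616, EtOH 1895 and 1864 of 11572 and OHT 2875 and 2108 of 11638. With the block and the length trend removed, calls of members were 4 and 11 at Day 2 (median -0.029) and 29 positive for the interaction (0.15). They were 5 higher in EtOH (-0.15) and 19 and 17 in OHT (0.025), and the Day 4 median was 0.11. Over all genes, this setting gave 534 and 580 of 11651 tested at Day 2 and 1710 positive of 11621 for the interaction. In EtOH it gave 2105 higher of 11578, and in OHT 2701 and 2146 of 11646. Of the other values, 349 summary values kept within their limits. Of those of named genes, 1265 kept their side of the threshold, 65 lost a call and 19 gained one. Where the main fit or the alternative made a call, 0 changed sign. A change of sign without a call was not counted, as for Hist1h2br at Day 2 (-0.105 to 0.411 over the settings that kept all libraries). The cause was not tested. Counts below 100 (Hist1h4m, Hist1h2ao, Hist2h2be) limit what can be compared, and shared reads limit single near-identical genes more than class sums.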

Other observations

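Hist3h2bb-ps, the pseudogene that was left out by name and lies in the Hist3 cluster with Hist3h2ba, was not called at Day 2 (log2 fold change 0.08) and was lower in OHT at Day 4 (-0.82, SE 0.09, adjusted p = 1.04e-19 with DESeq2). The effect differed between the days by -0.89.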
